A study of Mus musculus with 8 samples.

Results

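The comparison was that of Sox2-KD E14 ESCs with control E14 ESCs, described over every expressed gene. E14 is an established line of mouse embryonic stem cells. Its members were chosen by name, as the 2 libraries of cells given an shRNA against Sox2 and the 2 libraries of cells given a control shRNA, 4 of the 8 libraries of the series. All cells were infected with lentiviruses carrying an shRNA in the GV248 vector and selected with puromycin, so the control cells carried a vector and had met the drug as well. Per the study's methods, E14 ESCs were grown and infected in medium with serum, leukemia inhibitory factor (LIF), CHIR99021 and PD0325901. All pathways below were thus read with these present. The other 4 libraries came from E14 ESCs with an shRNA against Cdk9 (Cdk9-KD) or against Hnrnpk (hnRNPK-KD), 2 for each, and are used here as a further reference that does not contain the control libraries. Polyadenylated RNA was sequenced, and the authors deposited the raw count of reads for each gene. The replicates are biological duplicates per the study's methods, and which of the 2 Sox2 shRNAs a library received is not given in the sources used here. The spread behind each p-value is that between the 2 libraries of a group, pooled over the 4 groups and moderated across genes.

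SOX2 is a transcription factor of the HMG-box family that binds DNA beside OCT4 (encoded by Pou5f1) at enhancers active in pluripotent cells. Together with NANOG and a wider network of factors it holds ESCs in an undifferentiated state, and the cells of the early embryo that lose this network can turn to trophectoderm, the outer layer that forms the placenta, or to primitive endoderm, which forms the yolk sac. SOX2 is also a regulator of neural progenitors. Gene lists for these lineages, for signalling pathways and for general cell functions were examined one by one. The lists were chosen with earlier results of these data known.

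The shRNA target sites are shown because they decide which transcript the hairpins can reach. They are written 5′ to 3′ as in the mRNA, and capitals mark the 7 bases that pair with bases 2 to 8 of the guide strand.
SOX2-shRNA1: aggagcacccggaTTATAAAt
SOX2-shRNA2: caaagagatacaaGGGAATTg
Control shRNA, with no exact match in an annotated transcript: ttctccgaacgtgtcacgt
SOX2-shRNA1 matched the coding sequence of Sox2 at chr3:34650729-34650749 and SOX2-shRNA2 matched the 3′ UTR at chr3:34651412-34651432, both on the + strand of GRCm38 in the only exon of the transcript ENSMUST00000099151.5. Each site was found whole in the transcripts of 1 gene of GENCODE vM21, which was Sox2.

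Total counts per library ranged from 16709201 to 17719366, so depth was similar in the 4 groups. The mitochondrial share of counts lay between 2.49% and 3.11% in all 8 libraries. The Sox2-KD libraries held the most genes with at least 10 counts, 15707 and 16084 against 15050 to 15482 in the other 6 libraries. Not every library showed the change its label names, since of those labelled hnRNPK-KD replicate 1 held 62.7% and replicate 2 held 103% of the control mean of Hnrnpk mRNA. Cdk9 was at 61.5% and 44.7% of the control mean in the Cdk9-KD libraries.

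The targeted gene was lowered in part. Sox2 counts were 7324 and 9257 in control and 5831 and 4968 in Sox2-KD E14 ESCs. The groups did not overlap, and the Sox2-KD libraries held 68.0% and 60.1% of the control mean after TMM normalization to CPM, the counts scaled to a common library size. In bulk RNA, fewer cells with Sox2 mRNA and less Sox2 mRNA per cell cannot be told apart. In the libraries of the other knockdowns Sox2 was between 102% and 125% of the control mean. The log2 fold change (log2FC) was -0.64 (SE 0.16, adjusted p = 0.0479 by the quasi-likelihood test of edgeR, with p-values adjusted over all genes after Benjamini and Hochberg), which is at the edge of the threshold. The call was lost when any 1 of the 4 libraries was left out (log2FC from -0.83 to -0.46). Measured against the mean of the Cdk9-KD and hnRNPK-KD groups the log2FC was -0.81 (adjusted p = 0.00531). Per transcript length, Sox2 fell from 200.5 and 257.8 RPKM (reads per kilobase of exon, scaled for library size) to 155.8 and 137.8 RPKM, so that much of the Sox2 mRNA was still there.

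Over all expressed genes, more genes were called higher than lower with all libraries in the fit, a balance that turned when either control library was left out. To be called, a gene needed a log2FC beyond 0.6 in either direction and an adjusted p below 0.05. A gene could pass the filter on low counts through the libraries of 1 group alone. Genes near 0 in control could thus enter by their Sox2-KD counts. This raises the share called higher and the median log2FC of lists rich in such genes. Of 16504 genes tested, 434 were higher in Sox2-KD E14 ESCs (2.63% of those tested) and 279 were lower (1.69%). Counts of called list members below are to be read beside these shares. Genes called higher started from low levels, with a median of 4.22 CPM in control and 15.1 CPM in Sox2-KD E14 ESCs and a median log2FC of 1.82. Genes called lower were more abundant, with a median of 29.5 CPM in control and 8.54 CPM in Sox2-KD E14 ESCs and a median log2FC of -1.45. The median log2FC of all genes tested was 0.021, and 3182 genes had an unadjusted p under 0.05. Both Sox2-KD libraries lay beyond both control libraries for all 434 higher and all 279 lower genes. Where this is said of a called gene below, it adds no support to the call. Over all genes tested, Sox2-KD lay above both control libraries for 4649 and below both for 4152. The change was larger in Sox2-KD replicate 2 than in replicate 1 for 305 of the 434 higher genes and for 148 of the 279 lower genes.
The number of calls rested on having both replicates. Leaving out control replicate 1, control replicate 2, Sox2-KD replicate 1 or Sox2-KD replicate 2 left 66, 62, 231 and 73 higher genes and 104, 89, 112 and 71 lower genes, so that lower calls outnumbered higher calls without either control library and the numbers were nearly equal without Sox2-KD replicate 2. The fold change kept its sign in every one of these settings for 431 of the 434 higher and for all 279 lower genes, while 34 higher and 48 lower genes were called in all 4 of them. Below, a gene said to be called in all 4 leave-out settings is one of these, and the adjusted p-values printed are from the fit of all 8 libraries. Whether counting used the strand is not given in the sources used here, so counts of genes whose exons overlap those of another gene are uncertain. Among genes named below this holds for Pou5f1, H19, Igf2, Wnt7b, Dab2, Evx1, Nr2f2, Rarb, Gata6, Enox1, Gata3, Akr1cl, Krt8, Anxa3, Fgfr2, Anxa2, Phlda1, Sox17, Zyx, Cdkn1c, Lats2, Nefl, Eomes, Bmp4, Dnmt3l, Plk3, Nid2, Cdkn1a, Sox15, Ezh2, Nid1, Pim1, Tet2, Ncam1, Sox1, Id4, Vax2os, Stk33, Spp1, Krt7, Bmp8b, Nnat, Dsg2, Epha1 and Fgfr1. In the reference that leaves out the control libraries, Sox2-KD against the mean of the Cdk9-KD and hnRNPK-KD groups, 1176 genes were higher (7.13%) and 464 were lower (2.81%). Without Sox2-KD replicate 2 these were 267 and 131, and without Sox2-KD replicate 1 they were 1041 and 289.

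**Figure D1:**
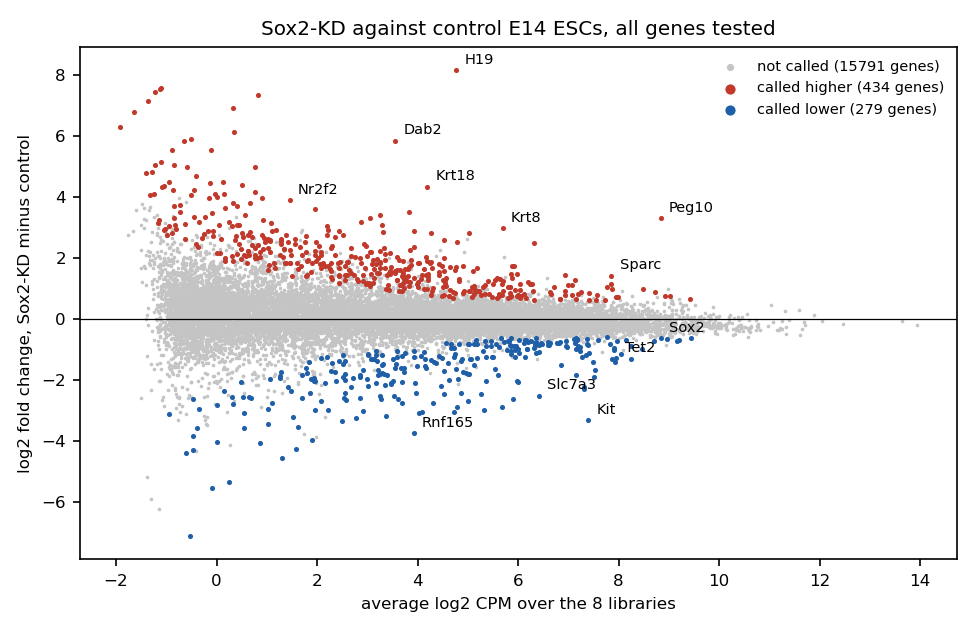
Each point is 1 of the 16504 genes tested, with its average log2 CPM over the 8 libraries on the x axis and its log2 fold change (Sox2-KD minus control) on the y axis. The 434 genes called higher are red, the 279 called lower are blue and uncalled genes are grey, and the labelled genes are described in the text, from H19 at 8.16 to Rnf165 at -3.76.

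Core pluripotency factors other than Sox2 were not called. Pou5f1 had 12794 and 13107 counts in control and 10629 and 11445 counts in Sox2-KD E14 ESCs, a log2FC of -0.25 (SE 0.14, adjusted p = 0.37). Nanog had 15015 and 13017 counts in control and 11136 and 9920 counts in Sox2-KD E14 ESCs, a log2FC of -0.43 (SE 0.16, adjusted p = 0.161). For both genes Sox2-KD counts were under control counts in every library, by less than the test could separate from the spread. Of the 6 core factors Sox2 itself was the 1 called member, and the median log2FC of the list was -0.22.
The naive pluripotency list, which holds factors and markers of the ground state, had 29 members tested, of which 2 were higher and 4 were lower, with a median log2FC of -0.25. Kit, the receptor of stem cell factor, had the smallest adjusted p of all lower genes. It went from 4065 and 6244 counts to 524 and 514 counts (log2FC -3.33, SE 0.21, adjusted p = 0.000152). All 4 libraries of the other knockdowns, at 2646 to 3287 counts, also lay below the control libraries but above the Sox2-KD libraries, and the log2FC against them was -2.58 (adjusted p = 0.000131). Tet2, which oxidizes 5-methylcytosine, went from 4926 and 4805 counts to 1593 and 2406 counts (log2FC -1.30, adjusted p = 0.00846). Tcl1, a coactivator of AKT, went from 1330 and 1266 counts to 564 and 544 counts (log2FC -1.25, adjusted p = 0.00275). The control and Sox2-KD libraries did not overlap for any of these 3 genes, and all 3 were called in all 4 leave-out settings. Spp1, the secreted phosphoprotein osteopontin, was also lower (log2FC -0.74, adjusted p = 0.0383), and Dppa2 and Zfp57 were higher (log2FC 0.75 and 0.66, adjusted p = 0.0228 and 0.0424). These last 3 were called in at most 1 of the 4 leave-out settings. The naive factors Esrrb, Klf4 and Zfp42 were not called, with a log2FC of -0.20, -0.30 and -0.07, and the log2FC of Zfp42 was 0.06 without Sox2-KD replicate 1.

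**Figure D2:**
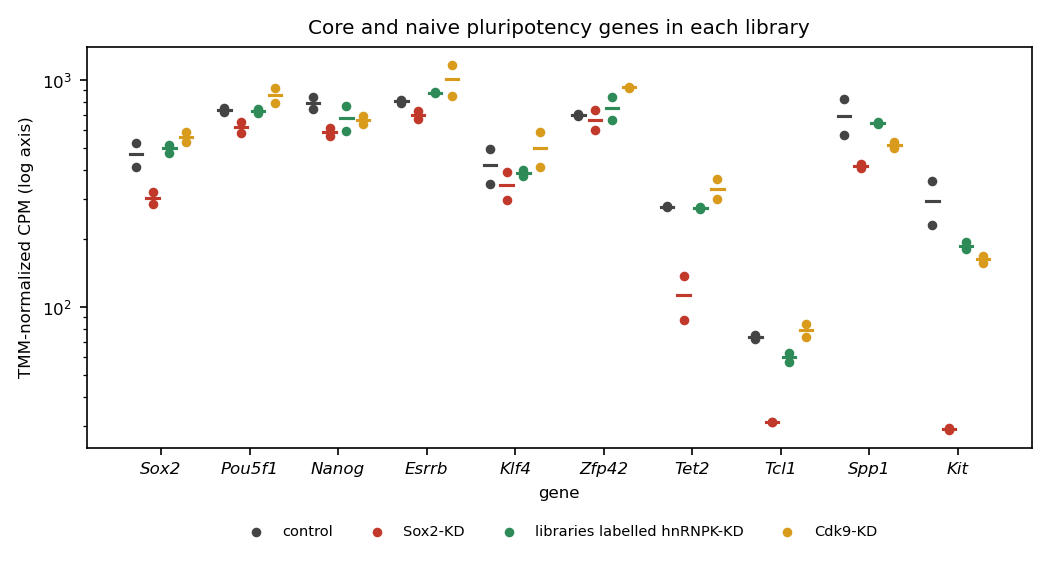
TMM-normalized CPM on a log axis for 10 core and naive pluripotency genes. Each point is 1 library, the short bars are group means, and the colours mark the 4 groups of 2 libraries. For Tet2, Tcl1, Kit, Sox2, Pou5f1, Esrrb and Spp1 both Sox2-KD libraries lie below the other 6 libraries. For Nanog, Klf4 and Zfp42 they overlap with other libraries.

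The list of genes with described SOX2-OCT4 enhancers had 17 members tested, with 2 higher, 2 lower and a median log2FC of -0.16. Sox2 and Mycn were the lower members, and Mycn, a MYC family factor, had a log2FC of -0.70 (adjusted p = 0.043). Jarid2, a subunit of Polycomb repressive complex PRC2, and Utf1 were the higher members (log2FC 0.89 and 0.80, adjusted p = 0.0139 and 0.0328). Fgf4, the ligand that drives ESCs out of the ground state, had 3859 and 3226 counts in control and 1696 and 2740 counts in Sox2-KD E14 ESCs. Its libraries did not overlap, but the log2FC of -0.69 (SE 0.22) did not pass (adjusted p = 0.112). The SOX and octamer elements of the Fgf4 enhancer that the study cloned are shown in capitals, because they form the composite site that SOX2 and OCT4 bind together.
Fgf4 enhancer element: CTTTGTTtggATGCTAAT
This element lies at chr7:144864394-144864411 of GRCm38 on the + strand, in the 3′ UTR of Fgf4.
Among SOX family members, 11 were tested, of which 0 were higher and 3 were lower. Besides Sox2 these were Sox1, a regulator of the neural plate, and Sox13. Sox1 went from 100 and 52 counts to 10 and 9 counts (log2FC -3.00, SE 0.50, adjusted p = 0.0102). Sox13 went from 615 and 786 counts to 184 and 379 counts (log2FC -1.33, SE 0.30, adjusted p = 0.0355). Neither group pair overlapped, and both genes were called in 1 of the 4 leave-out settings. Sox3, a close relative of Sox2, had 3 counts in each control library and 9 and 3 counts in the Sox2-KD libraries, too few to test, and Sox15 was not called (log2FC -0.16).

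Trophectoderm regulators divided. Of 17 members tested, 6 were higher and 1 was lower, and the median log2FC was 0.73 beside 0.021 for all genes tested. Gata3, a zinc finger factor that directs trophectoderm, went from 5 and 3 counts to 43 and 50 counts (log2FC 3.48, SE 0.58, adjusted p = 0.0103). Gata2 went from 88 and 31 counts to 206 and 231 counts (log2FC 1.86, adjusted p = 0.0404). Fgfr2, the receptor through which FGF4 keeps trophoblast stem cells dividing, went from 10 and 8 counts to 74 and 60 counts (log2FC 2.86, adjusted p = 0.0141). In each of these genes both Sox2-KD libraries exceeded both control libraries. Esx1, a placental homeobox gene, and Eomes, a T-box factor of trophoblast stem cells and mesendoderm, were also higher. Esx1 went from 11 and 16 counts to 59 and 60 counts (log2FC 2.11, adjusted p = 0.0214), and Eomes went from 68 and 45 counts to 163 and 162 counts (log2FC 1.50, adjusted p = 0.0166). Gcm1, a regulator of syncytiotrophoblast, had 0 and 2 counts in control and 21 and 17 counts in Sox2-KD E14 ESCs, a ratio of 18.7 with an exact 95% counting interval from 4.84 to 160 that covers counting error only.
The defining regulator Cdx2 had the opposite direction. Cdx2 had 351 and 613 counts in control and 111 and 109 counts in Sox2-KD E14 ESCs, and the log2FC of -2.15 (SE 0.54) just missed the threshold (adjusted p = 0.0521). Against the other knockdown libraries its log2FC was -2.58 (adjusted p = 0.00946). Elf5, another defining regulator, had at most 1 count in each of the 4 libraries. Ets2 was the lower member, from 649 and 777 counts to 283 and 361 counts (log2FC -1.16, adjusted p = 0.0131). Of the 7 called members none was called in all 4 leave-out settings, and Ets2 was called in 2 of them.
Trophoblast products, the keratins, surface proteins and secreted factors of that lineage, had 19 members tested. Of these 10 were higher and 2 were lower, with a median log2FC of 2.04. Another 8 of the 27 members listed were too low to test. Members near 0 in control, such as Wnt7b, passed the filter through the Sox2-KD libraries, so the share and the median are raised by the filter. The count of higher members was between 3 and 8 when 1 of the 4 libraries was left out. Krt18 went from 58 and 50 counts to 754 and 1450 counts (log2FC 4.34, SE 0.52, adjusted p = 0.00282), and its partner Krt8 went from 326 and 303 counts to 1768 and 3187 counts (log2FC 2.97, SE 0.31, adjusted p = 0.00232). Krt8 and Krt18 pair to form the first intermediate filaments of the embryo. Both were about as low in the other knockdown libraries as in control, at 25 to 95 counts for Krt18 and 310 to 518 counts for Krt8. Wnt7b, a ligand of the placental chorion, had 0 and 2 counts in control and 68 and 90 counts in Sox2-KD E14 ESCs, a ratio of 77.8 with an exact 95% counting interval from 21.2 to 648. Krt18, Krt8 and Wnt7b were called in all 4 leave-out settings.
Further higher members were Krt7, Krt19, Lgals3, Bmp8b and Peg10 and the X-linked homeobox genes Rhox6 and Rhox9. Rhox6 went from 8 and 5 counts to 107 and 102 counts, and Rhox9 went from 4 and 3 counts to 45 and 79 counts (log2FC 3.96 and 4.09, adjusted p = 0.0173 and 0.013), with the reservation that members of this cluster resemble each other. Ada, which clears adenosine in the placenta, went from 280 and 277 counts to 40 and 90 counts (log2FC -2.11, adjusted p = 0.0107), and Cdh3, the placental cadherin, was lower too (log2FC -1.12, adjusted p = 0.0215). The defining marker Plac1 had 0 counts in both control libraries and 7 and 13 counts in the Sox2-KD libraries, too few to test. Tpbpa and the placental lactogens Prl3d1 and Prl3b1 had 0 counts in all 4 libraries. A rise in a few cells and a smaller rise in all cells cannot be told apart here.
Over the keratins as a family of intermediate filaments, 9 were tested, with 5 higher, 0 lower and a median log2FC of 2.89. The same limit of the filter holds here, since 4 of the 13 listed were too low to test. The fifth higher keratin was Krt23, with 1 and 0 counts in control and 152 and 58 counts in Sox2-KD E14 ESCs, a ratio of 207 with an exact 95% counting interval from 36.7 to 8210. All 5 are keratins of simple epithelia.

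The promoters of the keratin pair are shown because both genes rose together and are neighbours on chromosome 15. They run from 250 bases before to 50 bases after the start given by RefSeq (GRCm38.p6), 5′ to 3′ on the strand of the gene. Capitals mark matches, on either strand, to the SOX core letters ACAAAG or ACAATG, the octamer ATGCAAAT, the GATA letters AGATAA, the AP-2 letters GCCNNNGGC, the TEAD letters GGAATG or the KLF letters GGGNGTGG.
Krt18, chr15:102027966-102028265, + strand: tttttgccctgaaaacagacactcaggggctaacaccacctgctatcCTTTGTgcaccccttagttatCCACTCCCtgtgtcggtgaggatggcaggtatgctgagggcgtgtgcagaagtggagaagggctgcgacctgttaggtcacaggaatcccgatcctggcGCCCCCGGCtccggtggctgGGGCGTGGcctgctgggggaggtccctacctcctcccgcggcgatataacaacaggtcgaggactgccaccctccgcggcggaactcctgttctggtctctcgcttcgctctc
Krt8, chr15:102004293-102004592, - strand: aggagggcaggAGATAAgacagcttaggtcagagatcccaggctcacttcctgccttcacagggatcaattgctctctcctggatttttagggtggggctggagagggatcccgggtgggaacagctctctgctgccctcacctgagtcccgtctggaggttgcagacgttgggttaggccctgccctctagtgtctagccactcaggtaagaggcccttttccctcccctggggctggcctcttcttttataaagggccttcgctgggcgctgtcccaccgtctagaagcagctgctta
The Krt18 promoter held 1 match to the SOX core, 1 to AP-2 and 2 to the KLF letters, and the Krt8 promoter held 1 GATA match. Such matches are common. There were 11229 tested genes with a promoter in the table, 320 of them called higher and 207 called lower. A SOX core match was in 2245 of all these promoters, in 61 of those of higher genes and in 52 of those of lower genes. The GATA letters were in 6.38% of all promoters, 9.38% of those of higher genes and 8.21% of those of lower genes. The KLF letters were in 23.4% of all promoters, 25.0% of those of higher genes and 14.5% of those of lower genes, and the AP-2 letters were in 24.7%, 25.9% and 24.6%. The TEAD letters were in 12.3%, 14.7% and 17.4% and the octamer was in 1.45%, 2.19% and 2.42%, in the same order. A match is a description of the letters and no evidence of binding.

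**Figure D3:**
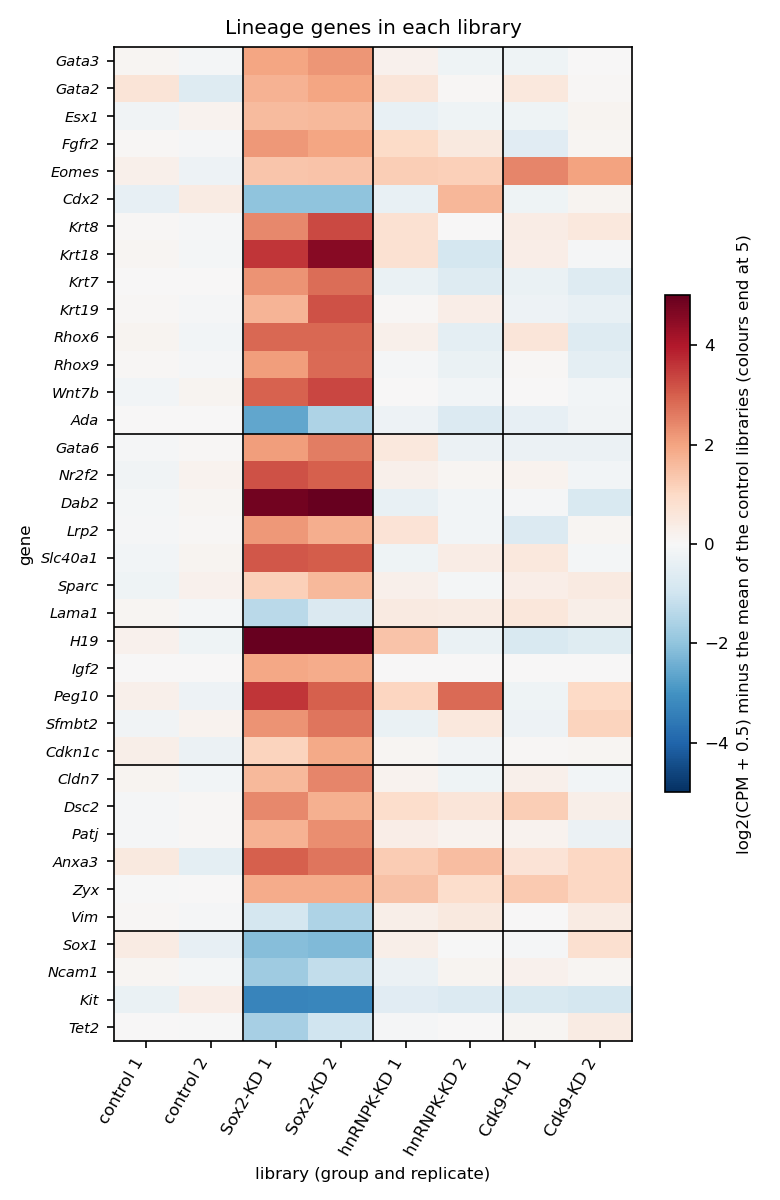
Each row is a gene and each column 1 of the 8 libraries, and colour gives log2(CPM + 0.5) minus the mean of the 2 control libraries, with red higher and blue lower and colours that end at 5. Lines part trophectoderm and trophoblast genes, endoderm genes, imprinted genes, epithelial and cytoskeletal genes, and neural and naive genes. Krt18, Dab2 and H19 are dark red in both Sox2-KD libraries alone, Cdx2 and Kit are blue there, and Eomes is red in the Cdk9-KD and hnRNPK-KD libraries as well.

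Primitive endoderm regulators had 12 members tested, of which 3 were higher and 0 were lower, with a median log2FC of 0.56. Gata6, which directs primitive endoderm, went from 4 and 5 counts to 49 and 68 counts (log2FC 3.65, SE 0.62, adjusted p = 0.0111). Nr2f2, an orphan nuclear receptor, went from 8 and 12 counts to 168 and 138 counts (log2FC 3.89, SE 0.40, adjusted p = 0.00232). Eomes was the third higher member. The groups did not overlap for either Gata6 or Nr2f2, and Nr2f2 was called in all 4 leave-out settings while Gata6 was called in 1. Of the other defining regulators, Gata4 had 17 and 17 counts in control and 21 and 8 counts in Sox2-KD E14 ESCs (log2FC -0.25, and 0.25 without Sox2-KD replicate 2). Sox17 had 2 and 4 counts in control and 17 and 10 counts in Sox2-KD E14 ESCs (log2FC 2.10, adjusted p = 0.2).
Products of visceral and parietal endoderm had 25 members tested, with 4 higher, 1 lower and a median log2FC of 0.27. Dab2, an endocytic adaptor that sorts receptors in endoderm, had the smallest adjusted p of all higher genes. It went from 12 and 15 counts to 637 and 950 counts (log2FC 5.85, SE 0.40, adjusted p = 0.000187) and had 4 to 12 counts in the other knockdown libraries. Lrp2, the endocytic receptor megalin, which Dab2 serves, went from 167 and 182 counts to 831 and 626 counts (log2FC 2.04, SE 0.33, adjusted p = 0.00948). Slc40a1, the iron exporter ferroportin, went from 15 and 19 counts to 217 and 202 counts (log2FC 3.59, SE 0.41, adjusted p = 0.00233). Sparc, a secreted matrix glycoprotein abundant in parietal endoderm, went from 2309 and 3105 counts to 6434 and 8223 counts (log2FC 1.42, SE 0.20, adjusted p = 0.00563). In all 4 genes the Sox2-KD libraries lay above the control libraries, and Dab2, Slc40a1 and Sparc were called in all 4 leave-out settings and Lrp2 in 2. The defining products Ttr, at 0 counts, and Afp, at no more than 1 count, were near absent from the 4 libraries.
Basement membrane genes, which parietal endoderm makes in bulk, moved in both directions. Of 26 tested, 2 were higher and 2 were lower, with a median log2FC of 0.57. These were 7.69% each, beside 2.63% higher and 1.69% lower of all genes tested. The related linkers Nid2 and Nid1 differed in sign, with a log2FC of 0.76 for Nid2 (adjusted p = 0.0137) and -0.90 for Nid1 (adjusted p = 0.0192). Lama1, a laminin chain, went from 4307 and 3790 counts to 1617 and 2431 counts (log2FC -1.01, adjusted p = 0.0215). Nid1, Nid2 and Lama1 were called in at most 1 of the 4 leave-out settings.

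Imprinted genes, expressed from 1 parental allele, had 39 members tested, of which 7 were higher and 1 was lower, with a median log2FC of 0.25. H19, a long noncoding RNA, had the largest log2FC among called genes with an average log2 CPM over 1. It had 9 and 4 counts in control, 985 and 2815 counts in Sox2-KD E14 ESCs and 0 to 31 counts in the other knockdown libraries (log2FC 8.16, SE 0.80, adjusted p = 0.00198). Its neighbour Igf2, a fetal growth factor, had 0 counts in both control libraries and in all 4 libraries of the other knockdowns and 26 and 23 counts in the Sox2-KD libraries, at least 16.1-fold higher than the floor of 3 counts over the control group. Both genes lie in 1 imprinted domain of chromosome 7. Cdkn1c, a cyclin-dependent kinase inhibitor, lies in the adjoining domain (29 and 16 counts in control, 60 and 103 counts in Sox2-KD E14 ESCs, log2FC 1.84, adjusted p = 0.0414). H19 was called in all 4 leave-out settings, Cdkn1c in 1 and Igf2 in 0.
Peg10, a retrotransposon-derived gene needed for the placenta, rose from 2293 and 1554 counts to 23276 and 15056 counts (log2FC 3.29, SE 0.54, adjusted p = 0.0103). Peg10 varied in the other groups, with 1588 and 3651 counts in the Cdk9-KD libraries and 3846 and 13171 counts in those labelled hnRNPK-KD. Its neighbour on chromosome 6, Sgce, went from 99 and 38 counts to 276 and 255 counts (log2FC 1.94, adjusted p = 0.0451). Sfmbt2, a Polycomb group gene with a role in the placenta, went from 540 and 684 counts to 2995 and 3906 counts (log2FC 2.48, SE 0.41, adjusted p = 0.0105). Nnat was higher and Peg12 lower (log2FC 1.45 and -1.17, adjusted p = 0.0408 and 0.0409). The other 31 members tested were not called. Peg10 was called in 2 leave-out settings, Sfmbt2 in 1 and Sgce, Nnat and Peg12 in 0.

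Epithelial genes were called higher in part. Of 35 junction genes tested, 9 were higher and 1 was lower, with a median log2FC of 0.62, and of 16 genes of surface ectoderm and stratified epithelium tested, 8 were higher and 0 were lower, with a median log2FC of 0.76. Cldn7, a tight junction claudin, went from 17 and 12 counts to 64 and 118 counts (log2FC 2.63, SE 0.47, adjusted p = 0.0141). Dsc2, a desmosomal cadherin, went from 20 and 22 counts to 156 and 92 counts (log2FC 2.53, SE 0.45, adjusted p = 0.013). Patj, a scaffold of apical polarity, went from 71 and 78 counts to 279 and 405 counts (log2FC 2.18, SE 0.30, adjusted p = 0.00497). Both Sox2-KD libraries exceeded both control libraries for all 3 genes, and Patj was called in all 4 leave-out settings while Cldn7 and Dsc2 were called in 1. Other higher members were Marveld2, Cldn4, Pkp2, F11r, Jup and Dsg2, with a log2FC between 0.62 and 1.88. Cdh1, which encodes E-cadherin, and Epcam were not called (log2FC 0.47 and 0.65, adjusted p = 0.139 and 0.103). The defining genes of stratified epithelium were absent, with 0 counts of Krt5 and 1 to 5 counts of Trp63 in each library, and of the called members of that list Gata3 is also on the list of trophectoderm regulators. The 14-3-3 protein gene Sfn went from 209 and 239 counts to 759 and 1062 counts (log2FC 2.01, adjusted p = 0.0193).
Genes of the actin cytoskeleton and focal adhesions had 42 members tested, with 14 higher, 2 lower and a median log2FC of 0.46. Zyx, which encodes zyxin, went from 135 and 134 counts to 520 and 502 counts (log2FC 1.90, SE 0.24, adjusted p = 0.0032), and its antisense neighbour Epha1 was higher too (log2FC 2.02, adjusted p = 0.00929), so that both values are uncertain where their exons overlap. The annexins Anxa3, Anxa2 and Anxa5, which bind membrane phospholipids, had a log2FC of 2.88, 2.54 and 1.60 (adjusted p = 0.00233, 0.0177 and 0.0247). Anxa3 went from 114 and 52 counts to 696 and 547 counts. Anxa2 differed between the Sox2-KD libraries, at 606 and 1893 counts against 262 and 167 counts in control, and its log2FC was 1.45 without Sox2-KD replicate 2. Partners of the annexins, S100a6, S100a10 and S100a11, were higher with a log2FC of 3.06, 0.91 and 0.93 (adjusted p = 0.0347, 0.0324 and 0.0378). Vim, the mesenchymal intermediate filament, was lower, from 4965 and 4536 counts to 2696 and 1632 counts (log2FC -1.16, SE 0.22, adjusted p = 0.0171). Zyx and Anxa3 were called in all 4 leave-out settings, Vim, Epha1 and Anxa2 in 1 or 2, and Anxa5 and the 3 S100 genes in 0.
The list of Hippo components and TEAD targets had 33 members tested, with 5 higher and 1 lower and a median log2FC of 0.26. The shares were 15.2% higher and 3.03% lower, beside 2.63% and 1.69% of all genes tested. Lats2, a Hippo kinase, had a log2FC of 1.73 (adjusted p = 0.0111), Vgll4, a TEAD corepressor, one of 1.35 (adjusted p = 0.0126) and Vgll3 one of 2.28 (adjusted p = 0.0204). Amotl1, an angiomotin that holds YAP at junctions, was lower (log2FC -1.22, adjusted p = 0.0125). Amotl1 was called in 2 of the 4 leave-out settings, Vgll4 in 1 and Lats2 and Vgll3 in 0. The higher members Zyx and Nt5e are described above and below.

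**Figure D4:**
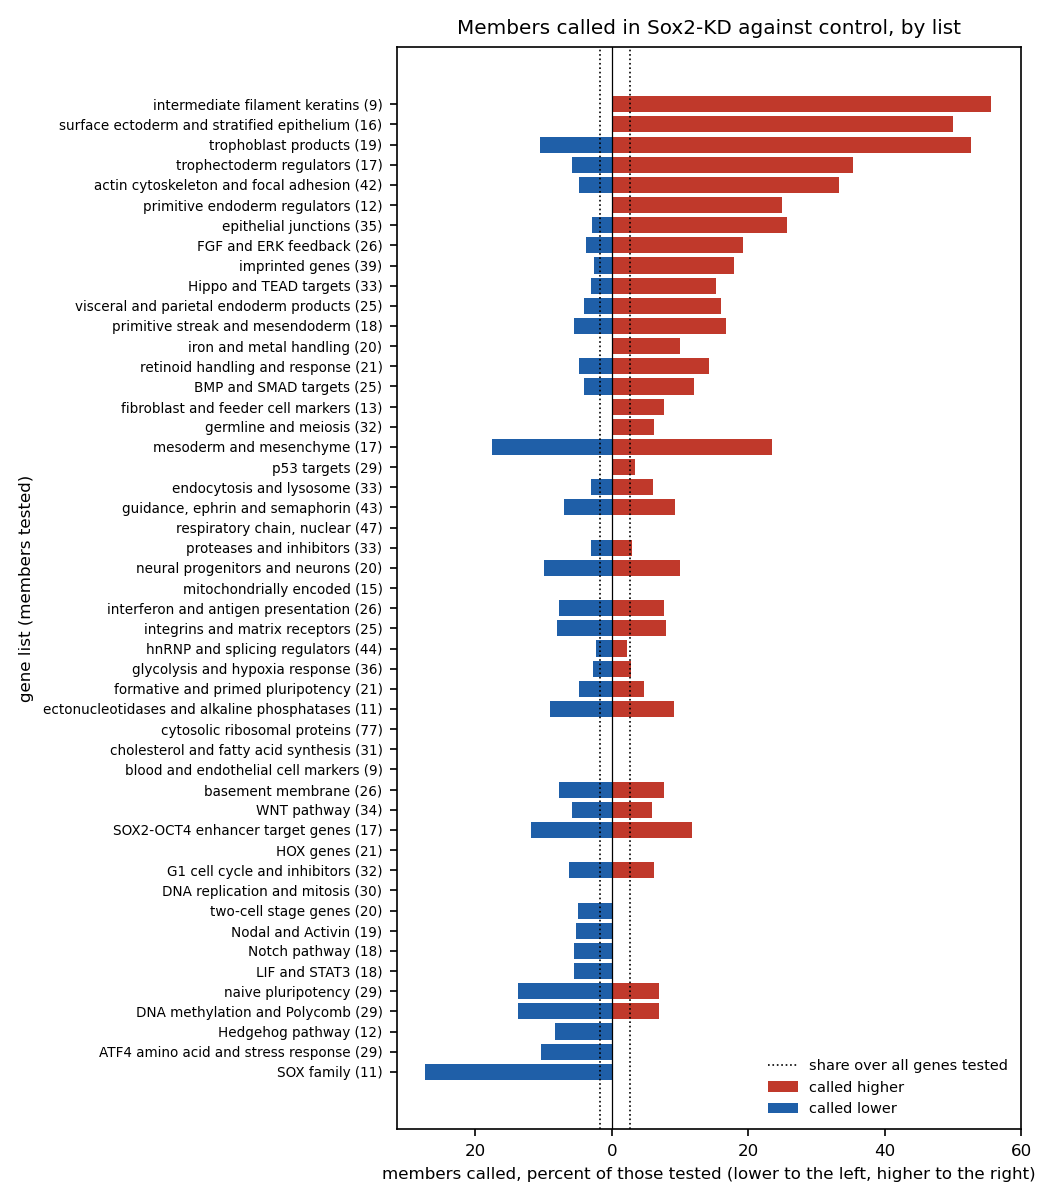
For each gene list with at least 9 members tested, bars give the percent of tested members called higher (red, to the right) and lower (blue, to the left) in Sox2-KD against control E14 ESCs, and dotted lines give the shares over all genes tested (2.63% and 1.69%). Keratins, trophoblast products, surface ectoderm genes and trophectoderm regulators have the longest red bars, SOX family members have the longest blue bar, and ribosomal, replication, HOX and cholesterol genes have no bar. The lists were chosen with earlier results of these data known, so the order of the bars is a description only. Lists share members (1524 entries for 1351 distinct genes). Krt7, Krt8, Krt18 and Krt19 count among both keratins and trophoblast products, so the bars are not independent.

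Mesodermal and neural genes were for the most part at low levels. Of 18 primitive streak and mesendoderm genes tested, 3 were higher and 1 was lower. These were 16.7% and 5.56%, beside 2.63% and 1.69% of all genes tested. Wnt8a went from 3 and 5 counts to 70 and 80 counts (log2FC 4.17, SE 0.69, adjusted p = 0.0102), and was 6 to 24 counts in the other knockdown libraries. Evx1 had 0 and 1 counts in control and 30 and 12 counts in Sox2-KD E14 ESCs, a ratio of 41.4 with an exact 95% counting interval from 7.03 to 1670. Gsc, a gene of the organizer, was lower (log2FC -2.63, adjusted p = 0.0403), and Mixl1 was not called (log2FC 1.18, adjusted p = 0.279). Wnt8a and Evx1 were called in 1 of the 4 leave-out settings and Gsc in 0.
Among 17 mesoderm and mesenchyme genes tested, 4 were higher and 3 were lower, the latter being Vim, Cald1 and Meis2. The shares were 23.5% and 17.6%, beside 2.63% and 1.69% of all genes tested. Cald1, which encodes caldesmon, went from 3370 and 3393 counts to 1844 and 1706 counts (log2FC -0.95, SE 0.15, adjusted p = 0.00832). Meis2, a homeobox gene, went from 480 and 508 counts to 138 and 115 counts (log2FC -1.99, SE 0.36, adjusted p = 0.015). The groups did not overlap for either gene. Cald1 was called in 2 leave-out settings and Meis2 in 0.
Of 46 neural progenitor and neuronal genes, 20 were expressed enough to be tested, of which 2 were higher and 2 were lower, with a median log2FC of 0.05. The median of the list was -0.32 and -0.33 when each Sox2-KD library was set against the control mean, and -0.43 against the other knockdowns. Sox1 is described above. Ncam1, a neural cell adhesion molecule, went from 388 and 335 counts to 101 and 148 counts (log2FC -1.55, SE 0.26, adjusted p = 0.0102). Nefl, a neurofilament chain, went from 661 and 622 counts to 2020 and 2280 counts (log2FC 1.73, SE 0.29, adjusted p = 0.0114), and Rtn1 was higher (log2FC 1.67, adjusted p = 0.0417). Ncam1 was called in 2 leave-out settings, Nefl in 1 and Rtn1 in 0. Of 21 HOX genes tested, 0 were called by edgeR's quasi-likelihood test, 5 had an unadjusted p under 0.05, and DESeq2 called 1 higher and 3 lower.
Markers of other cells that a culture can hold were low. Of 24 fibroblast and feeder cell markers 13 were tested, and their summed level was 115 and 142 CPM in control and 85.3 and 116 CPM in Sox2-KD E14 ESCs. The defining markers were Col1a1 at 9 to 20 counts, Dcn at 0 to 5 counts and Thy1 at 39 to 60 counts, none of them called. Lum was the 1 called member, with 0 and 1 counts in control and 23 and 13 counts in Sox2-KD E14 ESCs, and its part in other results was not tested. Of 19 blood and endothelial markers 9 were tested and 0 were called by edgeR, while 4 had an unadjusted p under 0.05 and DESeq2 called 1 lower. Their summed level was 180 and 185 CPM in control and 121 and 172 CPM in Sox2-KD E14 ESCs, and the defining markers Ptprc and Cdh5 had at most 12 counts in each library.

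FGF signalling and its feedback genes had 26 members tested, with 5 higher and 1 lower. These were 19.2% and 3.85%, beside 2.63% and 1.69% of all genes tested. Besides Fgfr2, the receptor Fgfr1 was higher (log2FC 0.90, adjusted p = 0.0326), as were Spry4, an inhibitor of the pathway, Phlda1 and Etv1 (log2FC 1.74, 2.11 and 1.12, adjusted p = 0.0373, 0.0105 and 0.0442). The lower member was the ligand Fgf3, which went from 137 and 131 counts to 15 and 19 counts (log2FC -2.99, SE 0.32, adjusted p = 0.00232) and was called in all 4 leave-out settings. Phlda1 and Etv1 were called in 1 leave-out setting and Fgfr2, Fgfr1 and Spry4 in 0. Fgf3 lies next to Fgf4 on chromosome 7. Dusp6, a direct readout of ERK activity, was not called (log2FC 0.76, adjusted p = 0.238), in cells whose medium held PD0325901.
Of the BMP ligands, 3 were called higher, with a log2FC of 1.46 for Bmp4 (309 and 481 counts in control, 1065 and 1148 counts in Sox2-KD E14 ESCs, adjusted p = 0.00948), 1.83 for Bmp8a (adjusted p = 0.0137) and 2.02 for Bmp8b (adjusted p = 0.037). Bmp4 was called in 2 leave-out settings, Bmp8a in 1 and Bmp8b in 0. Id4, an inhibitor of basic helix-loop-helix factors, was lower, from 317 and 419 counts to 59 and 30 counts (log2FC -3.07, SE 0.42, adjusted p = 0.00497), and was called in all 4 leave-out settings. Its relatives Id1 and Id3, targets of BMP signalling, were not called (log2FC 1.13 and 2.21, adjusted p = 0.208 and 0.0596), and control replicates of Id3 differed, at 71 and 318 counts. Over the 25 BMP and SMAD genes tested the counts were 3 higher and 1 lower.
Other pathways had 1 to 4 calls each, beside 2.63% higher and 1.69% lower of all genes tested. In lists of this length 1 call says little about the pathway. Of 19 Nodal and Activin genes 1 was lower, Fstl1, a secreted follistatin-like protein that went from 3889 and 3356 counts to 1363 and 597 counts (log2FC -1.92, SE 0.31, adjusted p = 0.00979), and Nodal itself was not called (log2FC 0.30). Of 34 WNT genes 2 were higher, Wnt7b and Rnf43, and 2 were lower, the secreted Dkk3 and the receptor Fzd4 (log2FC -1.86 and -1.96, adjusted p = 0.0233 and 0.0258). Of 18 Notch genes 1 was lower, the ligand Jag1, which went from 462 and 636 counts to 117 and 89 counts (log2FC -2.44, SE 0.34, adjusted p = 0.00496). Of 18 LIF and STAT3 genes Pim1 was lower (log2FC -1.13, adjusted p = 0.0373), and of 12 Hedgehog genes Ptch1 was lower (log2FC -0.90, adjusted p = 0.0471). Fstl1 and Jag1 were called in all 4 leave-out settings, Dkk3 and Pim1 in 1 and Rnf43, Fzd4 and Ptch1 in 0.
Among 21 retinoid genes, 3 were higher and 1 was lower (14.3% and 4.76%, beside 2.63% and 1.69% of all genes tested). Rarb, a retinoic acid receptor that retinoic acid itself induces, went from 6 and 2 counts to 47 and 61 counts (log2FC 3.70, SE 0.59, adjusted p = 0.00879), and was called in 2 leave-out settings. Guidance genes had 43 members tested, with 4 higher and 3 lower (9.3% and 6.98%, beside the same shares of all genes). Nrp2, a semaphorin receptor, went from 443 and 745 counts to 112 and 75 counts (log2FC -2.69, SE 0.38, adjusted p = 0.00533), and Slit3, a repulsive ligand, went from 283 and 307 counts to 117 and 90 counts (log2FC -1.53, SE 0.22, adjusted p = 0.0059). Epha7 was higher (111 and 117 counts against 382 and 337 counts, log2FC 1.63, adjusted p = 0.00489). Epha7 was called in all 4 leave-out settings and Nrp2 and Slit3 in 3. Against the other knockdowns, at 190 to 262 counts, Epha7 was not called (log2FC 0.58, adjusted p = 0.069). Gpc3, a glypican on the X chromosome that restrains growth, went from 1076 and 993 counts to 154 and 111 counts (log2FC -2.99, SE 0.40, adjusted p = 0.00454) and was called in all 4.

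Genes of DNA methylation and Polycomb had 29 members tested, with 2 higher, 4 lower and a median log2FC of -0.21. Dnmt3l, the catalytically inactive partner of the de novo methyltransferases, went from 1535 and 1377 counts to 3966 and 3234 counts (log2FC 1.28, SE 0.16, adjusted p = 0.00322) and was called in all 4 leave-out settings. It had 1815 to 2662 counts in the other knockdown libraries, also above control, and against them its log2FC of 0.57 was not called (adjusted p = 0.0217). Beside Tet2, the lower members were Uhrf1, which recruits the maintenance methyltransferase, the PRC2 cofactor Epop and the PRC1 subunit Cbx2 (log2FC -0.70, -0.69 and -0.81, adjusted p = 0.0367, 0.0318 and 0.0455), called in 0 of the leave-out settings. Dnmt3b and Ezh2 were not called (log2FC 0.29 and -0.23).
Of 32 germline and meiosis genes, Ddx4 and Slc25a31 were higher (log2FC 1.99 and 2.58, adjusted p = 0.0132 and 0.0317) and 0 were lower. Of 20 genes of the two-cell stage, the oocyte homeobox gene Obox6 was lower (log2FC -2.76, adjusted p = 0.0245). Of 29 p53 targets, Plk3 was higher (log2FC 1.11, adjusted p = 0.0209), a share of 3.45% beside 2.63% of all genes tested. Cdkn1a was not called (log2FC 0.53, adjusted p = 0.158). Among 26 interferon and antigen presentation genes, 2 were higher and 2 were lower. The latter were the membrane proteins Ifitm1, from 1381 and 1550 counts to 388 and 339 counts (log2FC -2.03, SE 0.34, adjusted p = 0.011), and Ifitm3 (log2FC -1.15, adjusted p = 0.0258), which are also germ cell and ESC genes. Members called higher were 6.25% of the germline list and 7.69% of the interferon list, beside 2.63% of all genes tested. Members called lower were 5.0% of the two-cell list and 7.69% of the interferon list, beside 1.69%. Ddx4, Slc25a31, Plk3 and Ifitm3 were called in 0 of the 4 leave-out settings and Obox6 and Ifitm1 in 1.
Growth and metabolism lists had few calls, while the ribosomal and replication lists leaned lower as groups. Abundant genes leaned lower too, with a median log2FC of -0.16 over the 709 genes tested with the highest average level. That set can hold members of both lists. The lists were not compared with other genes of like level, so a lean specific to them was not shown. Of 77 cytosolic ribosomal protein genes 0 were called by edgeR or DESeq2 and 20 had an unadjusted p under 0.05. Their median log2FC was -0.26, and 67 of them lay below both control libraries in both Sox2-KD libraries. Over all genes tested, 4152 of 16504 did so. Their summed level was 68525 and 68609 CPM in control, 57250 and 56898 CPM in Sox2-KD E14 ESCs and 61131 to 73638 CPM in the other knockdown libraries. Of 30 genes of DNA replication and mitosis 0 were called by edgeR, 2 were called lower by DESeq2 and 16 had an unadjusted p under 0.05. Over all genes tested, 3182 of 16504 had such a p. The median log2FC of the 30 genes was -0.37, and 0 of them had a log2FC over 0. Sox2-KD lay below both control libraries for 25 of the 30, beside 4152 of all 16504 genes tested. Their summed level was 9473 and 9086 CPM in control, 7441 and 6492 CPM in Sox2-KD E14 ESCs and 7401 to 8923 CPM in the other knockdown libraries. Of 47 nuclear respiratory chain genes and 31 cholesterol and fatty acid genes 0 were called by edgeR, with 7 and 9 at an unadjusted p under 0.05, and DESeq2 called 0 and 1.
Single genes of metabolism were called. Slc7a3, an importer of cationic amino acids, went from 1697 and 1121 counts to 284 and 214 counts (log2FC -2.52, SE 0.25, adjusted p = 0.00198). It was the first of 3 lower genes among 29 ATF4 targets tested, the others being the serine and proline synthesis genes Psat1 and Aldh18a1 (log2FC -0.83 and -0.88, adjusted p = 0.0407 and 0.0362). Asns and Atf4 were not called (log2FC -0.45 and -0.35). Ldhb, a lactate dehydrogenase chain, went from 3735 and 3628 counts to 1396 and 934 counts (log2FC -1.69, SE 0.24, adjusted p = 0.00533), and Pdk1, which restrains pyruvate dehydrogenase, was higher (log2FC 1.12, adjusted p = 0.0153). Steap3, an endosomal iron reductase, was higher beside Slc40a1 (log2FC 1.63, adjusted p = 0.0259). Mycl, a MYC family factor, went from 1407 and 1288 counts to 242 and 197 counts (log2FC -2.64, SE 0.21, adjusted p = 0.000349). Mycl, Slc7a3 and Ldhb were called in all 4 leave-out settings, Psat1, Aldh18a1 and Steap3 in 1 and Pdk1 in 0.

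At both ends of the fold changes, 8 called genes each with an average log2 CPM over 1 were taken. Of these H19, Dab2, Krt18, Nr2f2, Slc40a1 and Kit are described above. The other higher genes were Enox1, a surface oxidase, Akr1cl, an aldo-keto reductase, and Ube2dnl1, an X-linked gene that resembles ubiquitin-conjugating enzymes. Ube2dnl1 went from 37 and 32 counts to 422 and 277 counts (log2FC 3.31, SE 0.35, adjusted p = 0.00232). Enox1 had 78 and 20 counts in control and 734 and 389 counts in Sox2-KD E14 ESCs, and Akr1cl had 25 and 84 counts in control and 484 and 698 counts in Sox2-KD E14 ESCs (log2FC 3.49 and 3.42, adjusted p = 0.00779 and 0.00719). Enox1 was also above control in the Cdk9-KD libraries (86 and 111 counts) and in those labelled hnRNPK-KD (364 and 201 counts). Its log2FC was 1.68 against the other knockdowns (adjusted p = 0.0213) and 0.92 against hnRNPK-KD alone (adjusted p = 0.291). Ube2dnl1 had 60 to 126 counts in the other knockdown libraries and Akr1cl had 4 to 21. Ube2dnl1, Enox1 and Akr1cl were called in all 4 leave-out settings.
The other lower genes were Stk33 and Stk26, which encode protein kinases, Rnf165, a ubiquitin ligase of neurons, Slc25a48, a mitochondrial carrier, and the uncharacterized D630039A03Rik, Gm2832 and Vax2os. Rnf165 went from 296 and 216 counts to 23 and 15 counts (log2FC -3.76, SE 0.30, adjusted p = 0.000349), and had 278 to 482 counts in the other knockdown libraries. Slc25a48 went from 109 and 165 counts to 11 and 16 counts (log2FC -3.35, SE 0.50, adjusted p = 0.00689). Stk33 and Stk26 fell to 7 and 1 counts and to 4 and 1 counts, from 84 and 108 counts and from 36 and 20 counts (log2FC -4.57 and -3.44, adjusted p = 0.011 and 0.0158). Gm2832 (log2FC -4.29) is a predicted gene and Vax2os (log2FC -3.97) is antisense to another gene, so that their counting is uncertain. Rnf165, Slc25a48, D630039A03Rik and Gm2832 were called in all 4 leave-out settings, Vax2os in 3 and Stk33 and Stk26 in 2.

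Some genes called against control were near the level of the other knockdown libraries. Nt5e, which encodes the ectonucleotidase CD73, had 158 and 71 counts in control, 749 and 870 counts in Sox2-KD E14 ESCs and 593 to 746 counts in the other knockdown libraries. Its log2FC was 2.81 against control (adjusted p = 0.00232) and 0.22 against the other knockdowns (SE 0.24, adjusted p = 0.621). Bmp4 and Eomes had a log2FC of -0.23 and -0.35 against the other knockdowns (adjusted p = 0.518 and 0.387), and Spry4, Utf1 and Pdk1 had one of -0.24, 0.07 and 0.14 (adjusted p = 0.702, 0.814 and 0.684). Epha7, Dnmt3l and Zyx kept a smaller difference, with a log2FC of 0.58, 0.57 and 0.67 against the other knockdowns and of 1.63, 1.28 and 1.90 against control, and Zyx alone of these 3 was called in both. For all 9 of these genes, which were chosen after their values were seen and are not all such genes, the control libraries lay below the libraries of the other 3 groups, and a comparison with control alone cannot tell Sox2-KD from what the knockdown libraries share. In contrast, Dab2, Krt18, Krt8, H19, Nr2f2 and Slc40a1 had a log2FC of 6.43, 4.15, 2.51, 9.13, 3.72 and 3.34 against the other knockdowns, and Kit, Tet2, Mycl and Slc7a3 had one of -2.58, -1.42, -2.61 and -3.14, with an adjusted p between 1.15e-05 (Dab2) and 0.00129 (Tet2). The lists of trophoblast products, keratins and surface ectoderm had 12, 5 and 8 members higher there, of the same 19, 9 and 16 tested. Over all genes tested, 7.13% were higher and 2.81% were lower in that comparison. The naive pluripotency list had 2 higher and 9 lower members of 29 there, with a median log2FC of -0.39. Against control it had 2 higher and 4 lower members. Both comparisons use the same 2 Sox2-KD libraries, and these genes and lists were chosen with values against control known. The comparisons are thus not independent, and a like result in both adds no separate support.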

How the data were processed

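Polyadenylated RNA of 8 libraries of E14 ESCs was sequenced as paired reads on the MGISEQ-2000. Per the study's methods the authors trimmed reads with Trimmomatic and aligned them to mm10 with STAR. The submitters' processing notes name STAR 2.7.9a, featureCounts 2.0.1 and FastQC. The deposited values are raw gene counts, with no normalization. Groups came from the sample labels. Here counts were fitted in edgeR 4.0.16 (R 4.3.3) by its quasi-likelihood test with TMM factors, filterByExpr (minimum count 10, minimum total 15) and 1 term for the 4 groups, and p-values were adjusted after Benjamini and Hochberg over the 16504 genes tested. The second comparison set Sox2-KD against the mean of the Cdk9-KD and hnRNPK-KD groups. Ratios of genes near 0 carry exact 95% intervals or a floor of 3 counts over the group, which cover counting error only. Alternatives were DESeq2 1.42.0, other scalings and filters, a likelihood ratio test, other thresholds, a replicate block and leaving out libraries. Leaving out hnRNPK-KD replicate 2 was chosen after seeing the data.

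The comparison and the gene lists were chosen with earlier results of these data known. Named genes were Sox2, the 8 called genes at each end of the log2FC among those with an average log2 CPM over 1, and in each list the defining genes and up to 3 called members with the smallest adjusted p. Further called list members, and the genes under the other observations, were named after their values were seen. Symbols came from GENCODE vM21, promoters from RefSeq GRCm38.p6.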

Additional observations from a re-analysis of the deposited data

How the results depend on the processing

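The likelihood ratio test called 866 genes higher and 484 lower, in place of 434 and 279. Leaving out 1 library gave 62 to 415 higher and 71 to 287 lower genes, the upper ends without hnRNPK-KD replicate 2, and against the other knockdowns 267 to 1202 higher and 131 to 428 lower genes. The lowest counts were without control replicate 2 (62), without Sox2-KD replicate 2 (71, 267 and 131), and without Sox2-KD replicate 1 the lower genes against the other knockdowns were 289. Fewer samples were then fitted. The call of Sox2 was lost with library totals (log2FC -0.57, adjusted p = 0.064), only the 4 libraries compared in the fit (-0.66, 0.0529), no filter on low counts (-0.68, 0.057), a minimum of 10 counts in each library (-0.64, 0.0535), without the hnRNPK-KD group (-0.65, 0.0658), without hnRNPK-KD replicate 2 (-0.66, 0.0611) and with an absolute log2FC over 1 (-0.64). It was between -0.83 and -0.46 with 1 library left out, and DESeq2 called it (-0.65, 0.00664). The cause was not tested. All these adjusted p-values are from models fitted across all genes.

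Library labels share replicate numbers and nothing more. The deviations of same-numbered control and Sox2-KD libraries correlated at 0.21, and those of other pairs of groups at -0.223 to 0.116. With a replicate block 414 genes were higher and 281 lower, and Sox2 had a log2FC of -0.64 (adjusted p = 0.0669).

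Signs turned for uncalled genes near 0. Zfp42 was 0.0 with library totals and ranged from -0.22 to 0.06 with 1 library left out, Otx2 from -0.47 to 0.18 (0.01 without control replicate 2), Sox15 from -0.48 to 0.23 and Gata4 from -1.08 to 0.25. Of 184 genes examined singly, DESeq2 kept 172 on their side of the threshold with their sign, the block kept 170, and leaving out 1 of the 4 libraries lost 81 to 106 calls.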

Other observations

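Genes outside the lists were read after their values were seen. Sox2ot, a long noncoding RNA gene in which Sox2 lies, went from 26 and 44 counts to 94 and 151 counts (log2FC 1.79, SE 0.41, adjusted p = 0.0369 by edgeR's quasi-likelihood test), opposite in sign to Sox2, with which it shares no exon positions in the annotation used. The cytochromes Cyp1a1 and Cyp1b1, which oxidize aromatic compounds, went from 1 and 5 counts to 36 and 64 counts and from 1 and 1 counts to 18 and 21 counts (log2FC 3.99 and 4.10). Adh1, an alcohol dehydrogenase that can oxidize retinol, went from 3 and 3 counts to 72 and 126 counts (log2FC 4.97). Thbs1, the matrix protein thrombospondin, went from 1 and 6 counts to 104 and 51 counts (log2FC 4.39). In each of these genes both Sox2-KD libraries were above both control libraries. Gbp2, a guanylate-binding protein, had 0 counts in both control libraries and 18 and 29 counts in the Sox2-KD libraries, at least 15.4-fold higher than the floor of 3 counts over the group. Prmt8, an arginine methyltransferase of neurons, had 20 and 15 counts in control and 0 in both Sox2-KD libraries, at least 11.8-fold lower.

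Armcx1, Armcx2 and Armcx4, X-linked genes of 1 family, were lower (log2FC -1.81, -2.65 and -2.06). Of 596 X-linked genes tested, 17 were higher and 21 lower, or 3.52% lower beside 1.69% of all genes tested. The share higher was 2.85% beside 2.63%. Shares varied among other chromosomes too, with 5.35% higher on chromosome 14. Calls leaned with expression level: 84.4% of calls were higher among genes averaging under 1 CPM, and 35.3% in the most abundant of 6 bins. Of 13527 protein coding genes 407 were higher and 260 lower, and of 1238 long noncoding RNA genes 18 were higher and 11 lower.

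Genes whose 3′ UTR holds the 7 bases that pair with the seed of an shRNA guide were set beside the rest, with no test. For SOX2-shRNA1 the 3002 genes with the site had a median log2FC of -0.038 and the 10449 genes without it 0.03, and their median UTR lengths were 2426 and 1055 bases. For SOX2-shRNA2 the 1376 genes with the site had a median log2FC of 0.007 and the 12075 without it 0.014.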
